A study of Mus musculus with 2 samples.

Results

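The 10 genes described here encode non-collagen proteins of cartilage matrix: *Acan*, *Hapln1*, *Matn1*, *Matn3*, *Matn4*, *Chad*, *Cnmd*, *Prg4*, *Cytl1* and *Comp*. They were chosen by name, as cartilage matrix genes other than collagens, and are 10 of the 31054 features counted in the single-cell RNA sequencing (scRNAseq) of rib repair callus. All 10 are in the feature list. Their unique molecular identifiers (UMIs, each standing for a captured RNA molecule) were read in each library by cell class.

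Repair callus was collected 4 days post injury (dpi), after large-scale rib resection in adult mice. Both groups carried *Sox9*:CreER, a tamoxifen-inducible Cre recombinase driven by *Sox9* sequences, and the *R26*:tdT reporter. Control mice had the genotype Smof/+ and *Smo* cKO mice Smof/f, so recombined control cells keep 1 working *Smo* allele. Tamoxifen was given on consecutive days in the week before surgery, and the cells of 3 animals per genotype were pooled into 1 library, with no sort for the reporter described. With 1 library per genotype there is no replicate and the genotypes were not tested against each other, and genotype and library cannot be told apart. Every interval given is a 95% interval that covers counting error only.

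Cartilage matrix is a collagen network filled with aggrecan, a large proteoglycan whose chondroitin sulfate chains hold water. Link protein, encoded by *Hapln1*, locks aggrecan onto hyaluronan, while matrilins, COMP and chondroadherin bridge collagen fibrils and their surroundings. SOX9, with SOX5 and SOX6, is the transcription factor that switches on many of these genes in chondrocytes. In this injury a cartilage callus precedes new bone, and *Smo* encodes the transducer of the Hedgehog signal.

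Promoters are shown for *Acan*, a known SOX9 target, and for *Chad* and *Cnmd*, the members with the highest and the lowest ratio between the libraries. Each is the 250 bases before the RefSeq start (GRCm38.p6), 5′ to 3′ on the strand of the gene, and capitals mark a TATAAA box. The *Acan* stretch is chr7:79052976-79053225 (plus strand), that of *Chad* is chr11:94564797-94565046 (plus strand) and that of *Cnmd* is chr14:79662184-79662433 (minus strand).
Acan: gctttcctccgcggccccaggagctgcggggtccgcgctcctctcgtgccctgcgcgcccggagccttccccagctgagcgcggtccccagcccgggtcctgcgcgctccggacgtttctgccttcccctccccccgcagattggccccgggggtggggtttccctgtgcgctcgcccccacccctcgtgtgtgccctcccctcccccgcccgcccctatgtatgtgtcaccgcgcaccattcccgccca
Chad: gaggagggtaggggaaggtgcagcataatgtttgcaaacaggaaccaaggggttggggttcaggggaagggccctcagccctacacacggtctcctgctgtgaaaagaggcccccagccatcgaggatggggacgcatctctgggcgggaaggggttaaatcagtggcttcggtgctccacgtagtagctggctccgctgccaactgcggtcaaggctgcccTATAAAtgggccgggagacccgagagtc
Cnmd: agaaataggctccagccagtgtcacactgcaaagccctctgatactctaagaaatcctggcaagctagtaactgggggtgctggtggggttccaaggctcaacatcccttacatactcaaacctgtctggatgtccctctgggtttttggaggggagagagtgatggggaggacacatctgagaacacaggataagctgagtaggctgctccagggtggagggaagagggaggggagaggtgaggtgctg
Both strands were searched for ACAAT (the core of SOX sites), ACCACCC (the core of GLI sites) and TATAAA. Among 32851 promoter stretches of the same length, 27.7% held ACAAT, 3.92% held ACCACCC and 12.4% held TATAAA. The promoter table had entries for 8 of the members, leaving *Prg4* and *Comp* without one, and none of the 8 held ACCACCC. The box in *Chad* was the only TATAAA, and the only ACAAT lay in the *Hapln1* stretch, which overlaps an annotated exon and is not printed.

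The control library held 10747 barcodes with 105367110 UMIs and the *Smo* cKO library 10512 barcodes with 112700220 UMIs. Cells with at least 200 detected genes and under 10% of UMIs on mitochondrial genes were kept, leaving 10057 control and 9507 *Smo* cKO cells. Each cell was classed by how many markers of a list it held a UMI of, with no member and no *Sox9* among the markers. Connective-gated cells, with at least 8 of 16 fibroblast and skeletal markers, numbered 6118 in control callus (60.8% of kept cells, median 10967 UMIs) and 4967 in *Smo* cKO callus (52.2%, median 13405 UMIs). Cells that passed a second gate were left out of this class, and no doublet caller was run. The libraries shared 613 barcodes, of which 483 had at least 30 times more UMIs in one library than in the other, and 282 control and 301 *Smo* cKO connective-gated cells carried a shared barcode. Without them the summed member ratio given next did not move beyond its interval (-0.81). *Smo*, the targeted gene, stood at 18.9 CPM (UMIs of a gene per 1000000 UMIs of the same cells) in control and at 12.1 CPM in *Smo* cKO connective-gated cells (log2 ratio -0.64, interval -0.76 to -0.52). The counts are not resolved by exon, so this level does not check the deletion itself. *Smo* was also lower in hematopoietic-gated cells (17 and 8 UMIs, log2 ratio -1.47, -2.90 to -0.18). In muscle-gated cells it had 8 and 5 UMIs (log2 ratio -1.90, -3.86 to -0.11). The tdTomato reporter gave a UMI in 48 control and 105 *Smo* cKO connective-gated cells, too few to set recombined cells apart.

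The abundant members lay mostly in connective-gated cells, and *Prg4*, *Acan* and *Comp*, which made up most of the UMIs, stood lower in the *Smo* cKO library. Of all UMIs of *Acan* in kept cells, 85.8% (control) and 81.4% (*Smo* cKO) lay in connective-gated cells, and 98.7% and 97.9% once cells that also passed another gate were added. Summed over the 10 members, control connective-gated cells held 26530 UMIs (336 CPM) and *Smo* cKO ones 14259 UMIs (191 CPM) (log2 ratio -0.81, -0.84 to -0.78). Hematopoietic-gated cells held 21.2 and 14.4 CPM of the 10 members, a level set beside the connective-gated cells as background. Whether it is free RNA or expression in the hematopoietic-gated cells was not tested. *Prg4*, with 18616 and 9496 UMIs, made up most of the sum, so its ratio is mainly that of *Prg4*. Markers of other cell types also differed within connective-gated cells: the 7 mural markers summed to 59.5 CPM in control cells and 122 CPM in *Smo* cKO cells, the 9 muscle markers to 27.6 and 46.8 CPM and the 10 hematopoietic markers to 59.9 and 72.0 CPM, with none of these markers at 0. Their part in the member ratios was not tested.

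In the fold count, 8 members reached 20 UMIs in at least 1 library. *Chad* was the 1 member at least 2-fold higher in *Smo* cKO cells, against 2.27% of the 14192 genes in the count. *Comp* and *Cnmd* were the 2 members at least 2-fold lower, against 1.87% of those genes. With 8 genes these shares rest on single members. The other members lay between. Of the 8, 5 were lower, against 49.3% of those genes, and *Hapln1* among the 5 had an interval spanning 0. The median log2 ratio of the 8 was -0.38 against 0.0045 over all those genes.

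**Figure D1:**
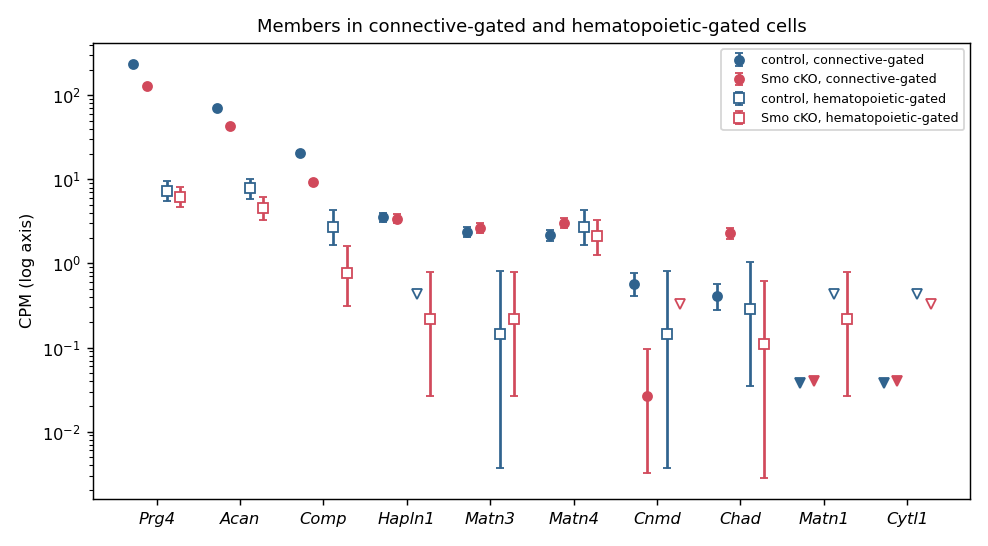
CPM (log axis) of each member in connective-gated cells (filled circles) and hematopoietic-gated cells (open squares) of the control (blue) and *Smo* cKO (red) library, with exact Poisson 95% intervals, and triangles at the limit that a count of 0 allows (3 UMIs). *Prg4*, *Acan* and *Comp* stand above the hematopoietic background in both libraries, and *Matn4* overlaps it. *Chad* and *Cnmd* overlap it in the control. *Matn1* and *Cytl1* are at 0 in connective-gated cells.

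*Acan*, which encodes aggrecan (ENSMUSG00000030607, chr7:79053483-79115099, plus strand, mm10), was the second most abundant member. It had 5557 UMIs in control connective-gated cells (70.3 CPM, 68.5 to 72.2) and 3228 UMIs in *Smo* cKO cells (43.3 CPM, 41.8 to 44.9). The *Smo* cKO library stood 1.62-fold lower (log2 ratio -0.70, -0.76 to -0.64). At a fixed depth of 2000 UMIs per cell, *Acan* was found in 8.35% (7.65 to 9.09) of 5857 control cells and 6.86% (6.16 to 7.61) of 4799 *Smo* cKO cells, against 21.5% and 19.5% without thinning. In hematopoietic-gated cells, thinned alike, the shares were 1.52% and 0.914%. Of the thinned cells, 3.04% in control and 1.46% in *Smo* cKO callus held at least 2 UMIs. The ratio of the shares was 1.22 for at least 1, 2.08 for at least 2, 1.70 for at least 3 and 2.46 for at least 5 UMIs, the last on 9 and 3 cells.

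The *Acan* ratio differed between deep and shallow cells. The study's methods also dropped cells with over 2000 detected genes, a limit not applied in the values above because it removes most connective-gated cells, leaving 23.0% (control) and 16.4% (*Smo* cKO) of them. These shallower cells had medians of 5111.5 and 3895 UMIs. Among them *Acan* had 145 and 93 UMIs, or 22.4 and 29.9 CPM, and the direction turned (log2 ratio 0.42, 0.03 to 0.80). *Prg4* kept its direction there, at 131 and 91.3 CPM (log2 ratio -0.52), while *Comp*, at 110 and 67 UMIs, gave 0.34 with an interval from -0.12 to 0.79. *Hapln1*, on 7 and 13 UMIs, gave 1.95 (0.52 to 3.52), *Matn4*, on 13 and 37 UMIs, 2.57 and *Chad*, on 5 and 30 UMIs, 3.64. The summed members came to -0.044 (-0.20 to 0.11).

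*Hapln1*, the partner of aggrecan, was close in level in the libraries over all connective-gated cells (ENSMUSG00000021613, chr13:89539796-89611652, plus strand). Its 280 control UMIs (3.54 CPM) and 254 *Smo* cKO UMIs (3.41 CPM) gave a log2 ratio near 0 (-0.06, interval -0.31 to 0.19). Hematopoietic-gated cells held 0 and 2 UMIs of it. With at most 2000 detected genes the ratio was 1.95, as given above, so the value near 0 did not hold in the shallower cells.

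The matrilins, adaptor proteins of the cartilage matrix, were rare or absent. *Matn1* (ENSMUSG00000040533), a marker of mature cartilage, had 0 UMIs in connective-gated cells of both libraries, which allows up to 0.0380 CPM in control cells and 0.0403 CPM in *Smo* cKO cells. Its only 2 UMIs lay in 2 hematopoietic-gated *Smo* cKO cells. *Matn3* (ENSMUSG00000020583) had 187 and 196 UMIs, or 2.37 and 2.63 CPM (log2 ratio 0.15, interval -0.14 to 0.45). *Matn4* (ENSMUSG00000016995) had 172 and 225 UMIs, or 2.18 and 3.02 CPM (log2 ratio 0.47, 0.18 to 0.77), yet hematopoietic-gated cells held 2.74 and 2.10 CPM.

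*Matn4* had 70.2% of its control and 63.9% of its *Smo* cKO UMIs in connective-gated cells, less than *Acan*, *Hapln1*, *Matn3*, *Prg4* and *Comp* in both libraries. Its highest level was in the few cells that passed both the connective and the epithelial or mesothelial gate, 13 control and 31 *Smo* cKO cells. These held 89.7 CPM (12 UMIs in 7 cells) and 71.4 CPM (30 UMIs in 19 cells). *Prg4* reached 419 and 195 CPM in the same cells, while *Acan* had 1 and 2 UMIs and *Comp* none. In thinned connective-gated cells *Matn4* was found in 0.307% of control cells, below the 0.762% of hematopoietic-gated cells, and in 0.834% of *Smo* cKO cells, above the 0.484% there.

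*Comp* encodes cartilage oligomeric matrix protein, a thrombospondin of cartilage and tendon (ENSMUSG00000031849, chr8:70373558-70382066, plus strand). It had 1641 UMIs (20.8 CPM) in control and 688 UMIs (9.24 CPM) in *Smo* cKO connective-gated cells (log2 ratio -1.17, -1.30 to -1.04). It was detected in 653 and 287 cells. Few cells held much of it in the *Smo* cKO library, where the 10 highest carried 34.6% of the UMIs and 1 cell had 87, against 13.9% and a top value of 37 in the control. Without the 10 highest cells of each library the log2 ratio was -1.57. Thinned to 2000 UMIs, 2.82% of control and 1.90% of *Smo* cKO cells held *Comp*, with 0.416% and 0.215% in hematopoietic-gated cells.

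*Chad* encodes chondroadherin, a leucine-rich protein that binds collagen and integrins (ENSMUSG00000039084, chr11:94565047-94569127, plus strand). It went the other way, from 32 UMIs in 16 control cells (0.405 CPM) to 170 UMIs in 43 *Smo* cKO cells (2.28 CPM), and the log2 ratio was 2.49 (1.94 to 3.09). The 10 highest cells held 81.2% and 76.5% of these UMIs, and 3 control and 6 *Smo* cKO cells held at least 50% of them. With those 10 cells left out in each library, the log2 ratio was 2.82 from the few UMIs that remained. At 2000 UMIs per cell *Chad* was seen in 4 of 5857 and 14 of 4799 cells. In hematopoietic-gated cells it had 2 (control) and 1 (*Smo* cKO) UMIs. The control interval there (0.0350 to 1.04 CPM) overlapped that of connective-gated cells (0.277 to 0.572 CPM). In the *Smo* cKO library the intervals (0.00280 to 0.616 and 1.95 to 2.65 CPM) did not overlap.

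*Cnmd*, which encodes chondromodulin, an inhibitor of vessel growth in cartilage (ENSMUSG00000022025, chr14:79637690-79662170, minus strand), was almost confined to the control. It had 45 UMIs in 30 control cells and 2 UMIs in 2 *Smo* cKO cells (log2 ratio -4.41, with a wide counting interval of -7.50 to -2.47). In thinned cells it was detected in 5 of 5857 and 1 of 4799. Counting every kept cell, the libraries held 55 and 3 UMIs. Hematopoietic-gated cells had 1 (control) and 0 (*Smo* cKO) UMIs of it. The control interval there (0.00366 to 0.805 CPM) overlapped that of connective-gated cells (0.415 to 0.762 CPM).

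*Prg4* encodes lubricin, the lubricant of joint surfaces, also made in tendon (ENSMUSG00000006014, chr1:150449412-150466165, minus strand). With 18616 control and 9496 *Smo* cKO UMIs (236 and 127 CPM) it was the most abundant member, 1.85-fold lower in the *Smo* cKO library (log2 ratio -0.89, -0.92 to -0.85). At 2000 UMIs per cell it was found in 18.8% (17.9 to 19.9) of control and 13.4% (12.4 to 14.4) of *Smo* cKO cells, a difference of -5.45 percentage points (-6.84 to -4.05), with 1.66% and 1.34% in hematopoietic-gated cells. The ratio of the shares was 1.41 for at least 1 UMI, 1.91 for at least 3 UMIs (4.70% and 2.46%) and 2.56 for at least 5 UMIs. *Cytl1* (ENSMUSG00000062329), a secreted factor of cartilage, was at 0 in all connective-gated cells, and its 3 UMIs lay in 1 endothelial-gated and 1 muscle-gated *Smo* cKO cell.

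**Figure D2:**
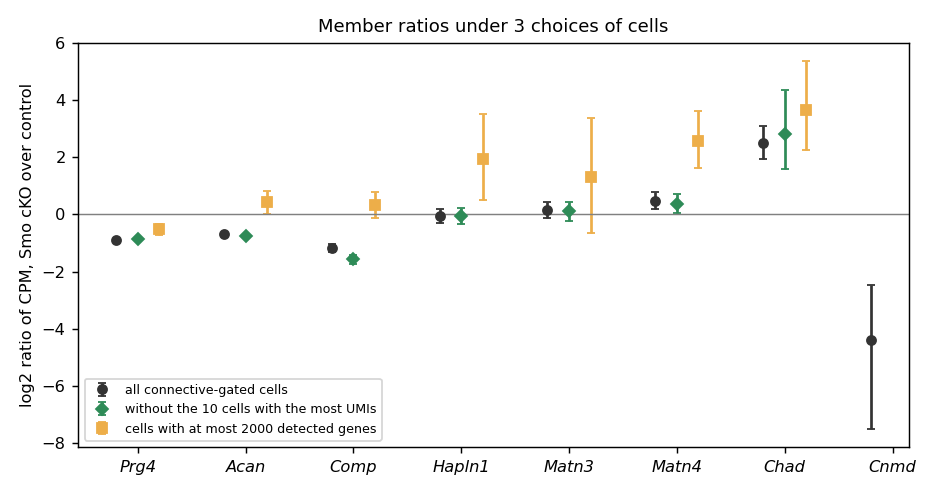
Log2 ratio of CPM (*Smo* cKO over control) in connective-gated cells with 95% counting intervals, for all cells (black circles), without the 10 cells with the most UMIs of the member in each library (green diamonds) and for cells with at most 2000 detected genes (orange squares). *Acan*, *Comp* and *Hapln1* change side in the shallower cells, where the interval of *Comp* spans 0, *Prg4* stays below 0 and *Chad* above 0 under all 3, and *Cnmd* has a value only for all cells.

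Connective-gated cells were divided further, first into chondrocyte-gated (at least 2 of 9 markers), osteoblast-gated (2 of 8) and tenocyte-gated (3 of 5), and the rest by the highest score among 5 connective states. Scores of 1131 control and 1039 *Smo* cKO cells lay within 0.25 SD of another state. No minimum score was set, so a state is named by its marker list and not by a checked identity. In the marrow stromal state *Cxcl12* was detected in 94.9% (control) and 92.4% (*Smo* cKO) of cells. No other marker of that list was detected in most cells, with *Lepr* in 4.08% and 8.08% and *Adipoq* in 1.22% and 0.289%. Only 41 control and 39 *Smo* cKO cells were chondrocyte-gated. In them *Col2a1*, the main collagen of cartilage, was detected in 31.7% and 20.5%, *Col10a1*, the collagen of hypertrophic chondrocytes, in none, and *Epyc* in 43.9% and 69.2%. *Col2a1* was thus not detected in most of these cells.

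*Acan* was highest in osteoblast-gated cells, above the chondrocyte-gated cells, in the control. There it stood at 399 CPM (374 to 425) in osteoblast-gated, 263 CPM (226 to 305) in chondrocyte-gated, 226 CPM (216 to 237) in skeletogenic *Col11a1*-type and 102 CPM in tenocyte-gated cells. The intervals of the chondrocyte-gated and skeletogenic cells overlapped. The remaining states lay between 11.7 CPM in adventitial and 40.1 CPM in *Tnc* *Inhba* fibroblasts. In the *Smo* cKO library the order at the top was the same, with 176 CPM (161 to 191), 160 CPM (132 to 193), 98.2 CPM and 78.1 CPM, and the first pair overlapped. *Acan* was lower in the *Smo* cKO library in all 8 subclasses, most in skeletogenic (log2 ratio -1.20, -1.32 to -1.09) and osteoblast-gated cells (-1.18, -1.34 to -1.03) and less so in tenocyte-gated cells (-0.39, -0.53 to -0.24). The intervals for adventitial and *Sfrp4* *Eln* cells reached above 0. The subclasses also differed in their own markers. In skeletogenic cells, 12.0% (control) and 17.2% (*Smo* cKO) of connective-gated cells, *Fmod* stood at 423 and 210 CPM. *Aspn* and *Ptn* were higher in the *Smo* cKO library and the other markers lower. In osteoblast-gated cells *Bglap* stood at 633 and 309 CPM, and only *Ibsp* of the markers was higher (1172 and 1251 CPM). Their part in the *Acan* ratios was not tested.

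*Hapln1* had its highest level in osteoblast-gated cells. These held 31.1% of its control and 27.2% of its *Smo* cKO UMIs, while they were 2.32% and 3.30% of connective-gated cells. Skeletogenic cells held 28.9% and 32.7% and *Tnc* *Inhba* fibroblasts 24.3% and 23.6%. Its level in osteoblast-gated cells was 35.7 CPM in control cells and 22.7 CPM in *Smo* cKO cells (log2 ratio -0.65, -1.13 to -0.18). Skeletogenic cells stood at 9.67 and 8.15 CPM. Chondrocyte-gated cells, with 3 and 10 UMIs, stood at 4.48 and 14.3 CPM. Their *Smo* cKO interval (6.86 to 26.3) overlapped that of osteoblast-gated cells (17.6 to 28.7).

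*Prg4* had a different map, with tenocyte-gated cells at the top. These held 477 CPM (462 to 492) in control cells and 249 CPM (239 to 260) in *Smo* cKO cells, and *Tnc* *Inhba* fibroblasts followed with 277 and 142 CPM and held 44.5% and 39.2% of all its connective UMIs. *Prg4* was lower in the *Smo* cKO library in all 8 subclasses, by a log2 ratio of -2.07 (-2.63 to -1.54) in chondrocyte-gated, -1.67 in osteoblast-gated and -1.62 in skeletogenic cells, but only by -0.20 (-0.33 to -0.07) in adventitial and -0.41 in marrow stromal cells. The chondrocyte-gated value rests on 149 UMIs in 15 control and 37 UMIs in 13 *Smo* cKO cells. Of the 149 UMIs, 48 came from 1 cell.

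*Comp* was highest in chondrocyte-gated cells, the 1 subclass in which it was not lower in the *Smo* cKO library. It stood there at 202 CPM (135 UMIs in 20 cells) in control cells and 229 CPM (160 UMIs in 9 cells) in *Smo* cKO cells (log2 ratio 0.18, -0.16 to 0.52). Of the latter, 87 UMIs came from 1 cell. In skeletogenic cells it stood at 55.8 and 9.81 CPM (log2 ratio -2.51, -2.83 to -2.19) and in tenocyte-gated cells at 50.3 and 20.6 CPM (-1.28, -1.54 to -1.04). The interval in skeletogenic cells overlapped that in marrow stromal cells, where the ratio was -2.13 (-2.69 to -1.62), and lay below those in the other 6 subclasses.

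**Figure D3:**
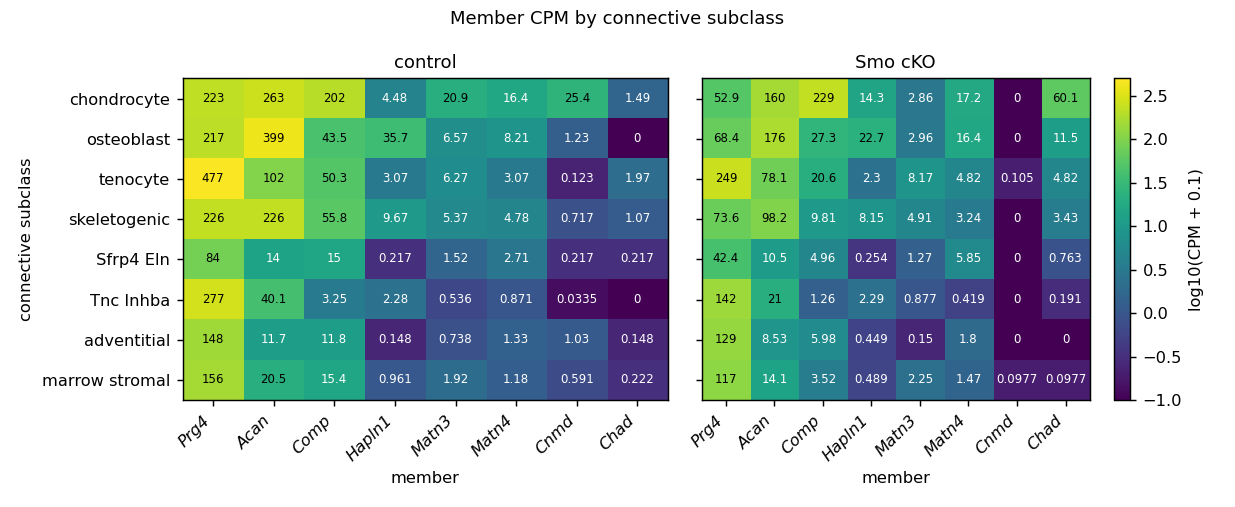
CPM of 8 members (columns) in 8 connective subclasses (rows) of the control and *Smo* cKO library, printed in each cell and coloured by log10(CPM + 0.1). *Prg4* is highest in tenocyte-gated cells, *Acan* and *Hapln1* in osteoblast-gated cells and *Comp* in chondrocyte-gated cells in both libraries.

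**Figure D4:**
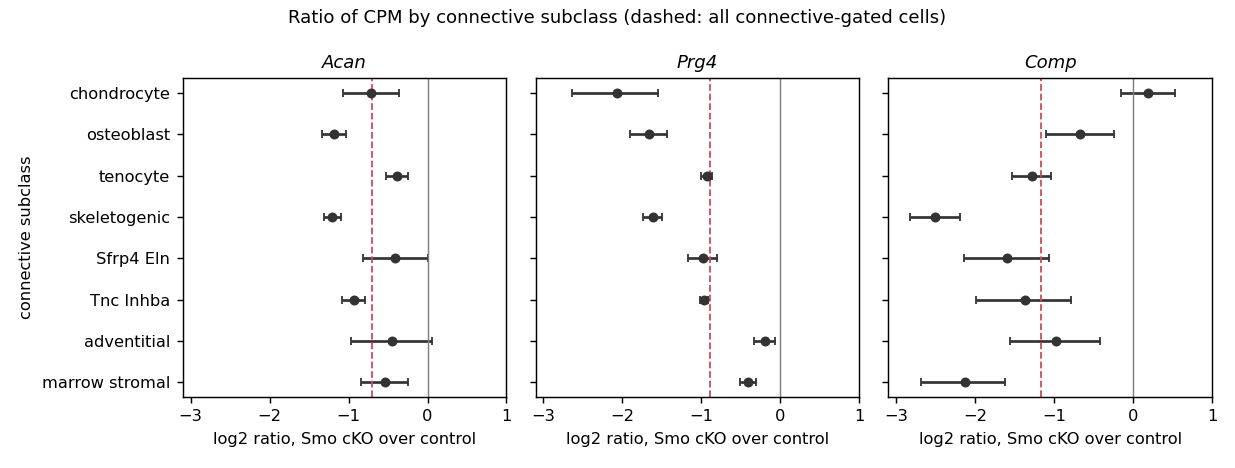
Log2 ratio (*Smo* cKO over control) of *Acan*, *Prg4* and *Comp* by connective subclass, with 95% counting intervals, and the ratio over all connective-gated cells as a dashed line. Points lie below 0 in all subclasses for *Acan* and *Prg4*, and for *Comp* in all but chondrocyte-gated cells.

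*Chad* lay mostly in tenocyte-gated and skeletogenic cells in the control, and also in chondrocyte-gated and osteoblast-gated cells in the *Smo* cKO library. In the *Smo* cKO library *Chad* had 42 UMIs in 4 chondrocyte-gated cells (60.1 CPM), 35 in 7 osteoblast-gated cells, 46 in 13 tenocyte-gated cells and 35 in 8 skeletogenic cells. In the control the chondrocyte-gated cells had 1 UMI and the 142 osteoblast-gated cells none. Of the 32 control UMIs, 16 lay in tenocyte-gated and 9 in skeletogenic cells. Against the floor of 3 counts, the *Chad* CPM was 9.34-fold higher in *Smo* cKO osteoblast-gated cells, where 1 cell held 14 of the 35 UMIs. *Cnmd* had 17 of its 45 control UMIs in 6 chondrocyte-gated cells (25.4 CPM), 8 of them in 1 cell. It had none in the 39 *Smo* cKO ones, 5.92-fold lower against the same floor. The floor counts UMIs and does not cover the spread between cells, so neither fold is a lower limit for the cells. *Matn3* had 14 UMIs in control chondrocyte-gated cells (20.9 CPM) and 2 in those of the *Smo* cKO library (log2 ratio -2.87, -6.05 to -0.75), while tenocyte-gated cells held 51 and 78 UMIs (0.38, -0.15 to 0.92). *Matn4* was higher in *Smo* cKO osteoblast-gated cells, at 8.21 and 16.4 CPM (log2 ratio 1.00, 0.23 to 1.83), and in *Sfrp4* *Eln* fibroblasts, at 2.71 and 5.85 CPM (1.11, 0.38 to 1.87), where the control level was near the 2.74 CPM of hematopoietic-gated cells. It was lower in skeletogenic cells (-0.56, -1.27 to 0.14) and *Tnc* *Inhba* fibroblasts (-1.05, -2.22 to 0.01), with both intervals spanning 0.

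Some subclass ratios changed with how cells were chosen. With 1 more marker needed, the summed member ratio of chondrocyte-gated cells turned from -0.50 to 1.97. With at most 2000 detected genes, that of osteoblast-gated cells turned from -1.13 to 1.94 and that of adventitial cells from -0.26 to 0.67. Skeletogenic, tenocyte-gated, *Sfrp4* *Eln*, *Tnc* *Inhba* and marrow stromal cells stayed below 0 under both.

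*Sox9* itself hardly differed, with 43.0 CPM in control and 39.8 CPM in *Smo* cKO connective-gated cells (log2 ratio -0.11, -0.18 to -0.04). It was lower in osteoblast-gated cells, at 82.1 and 44.7 CPM (-0.88, -1.20 to -0.56), and in skeletogenic cells, at 63.3 and 48.1 CPM (-0.40, -0.58 to -0.22). In tenocyte-gated cells it stood at 45.2 and 48.5 CPM. Thinned to 2000 UMIs it was found in 466 control and 360 *Smo* cKO cells, 7.96% and 7.50%, with 0.762% and 0.538% of hematopoietic-gated cells as background.

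*Acan* was found more often, and stood higher, in cells with a *Sox9* UMI after thinning than in the other cells. At full depth 1843 control and 1640 *Smo* cKO cells held *Sox9*, so the other cells include many that express it. Among control cells with a *Sox9* UMI after thinning, 15.5% (12.3 to 19.1) held *Acan*, against 7.74% (7.04 to 8.48) of the others. The *Smo* cKO shares were 10.0% (7.10 to 13.6) and 6.60% (5.89 to 7.37). By all UMIs of the same cells, *Acan* was 1.89-fold higher in *Sox9*-detected control cells and 1.61-fold higher in *Smo* cKO ones, and *Hapln1* 1.71-fold and 1.83-fold. The thinned share of cells with *Hapln1* rests on 4 and 3 *Sox9*-detected cells, and its difference from the other cells spanned 0 in both libraries. *Prg4* ratios were 1.03 and 1.07, with log2 intervals of -0.03 to 0.12 and -0.02 to 0.20. That of *Prg4* changed with the choice of cells: its log2 ratios were 0.88 and 0.98 with at most 2000 detected genes and 0.15 and 0.36 without thinning. *Sox9*-detected cells held 124 CPM of *Acan* in the control and 66.8 CPM in *Smo* cKO callus. Without the 10 cells richest in *Acan* the fold was 1.87 in control and 1.29 in *Smo* cKO cells. *Comp* gave no stable value in *Smo* cKO cells, 0.676-fold with detection at 2000 UMIs and 2.20-fold with detection at 5000 UMIs.

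*Hapln1*, *Comp*, *Matn3* and *Matn4* had a higher CPM in *Acan*-detected cells than in the others in both libraries. *Hapln1* stood at 21.7 CPM in control cells with an *Acan* UMI and 1.71 CPM in the others, 12.7-fold apart, and 11.1-fold in the *Smo* cKO library. At full depth *Acan* was also found in 88.0% of the 192 control cells with *Hapln1* and in 76.9% of 169 such *Smo* cKO cells. The other cells held it in 19.4% (control) and 17.5% (*Smo* cKO). These shares were not corrected for depth, and cells with *Hapln1* were deeper. Their medians were 16254.5 UMIs against 10769 in the control and 18434 against 13244.5 in the *Smo* cKO library. *Comp* was 4.24-fold higher in *Acan*-detected control cells and 12.9-fold in *Smo* cKO ones, and 4.54-fold and 5.67-fold without its 10 richest cells. *Matn3* was 4.99-fold and 2.25-fold higher, and *Matn4* 2.97-fold and 4.36-fold. *Acan* and *Hapln1* shared their highest subclass, and the part of subclass makeup in these folds was not tested.

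*Prg4* levels in *Acan*-detected cells went in opposite directions in the libraries, while for its detection the *Smo* cKO interval spanned 0. Control cells with an *Acan* UMI held 381 CPM of *Prg4* against 221 CPM in the others (log2 ratio 0.79, 0.73 to 0.85). In the *Smo* cKO library they held 92.6 against 130 CPM (-0.49, -0.62 to -0.36). Without the 10 cells richest in *Prg4* the values were 0.73 and -0.36, and with detection at full depth 0.42 and -0.60. Thinned, *Prg4* was found in 136 of 489 *Acan*-detected and 968 of 5368 other control cells, a difference of 9.78 percentage points (5.85 to 14.0). In *Smo* cKO callus it was found in 45 of 329 and 598 of 4470 cells, a difference of 0.300 points (-3.15 to 4.55). Taken the other way round, *Acan* in *Prg4*-detected over other cells gave log2 ratios of 0.71 (control) and 0.16 (*Smo* cKO, 0.02 to 0.30), the latter -0.07 without its 10 richest cells.

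*Chad* was found with *Comp*. In *Smo* cKO cells with a *Comp* UMI *Chad* stood at 116 CPM (129 UMIs) against 0.560 CPM in the others, and in control cells at 5.17 (10 UMIs) against 0.286 CPM. Without the 10 cells richest in *Chad* the *Smo* cKO values were 9.65 CPM on 10 UMIs and 0.410 CPM, and the fold was 23.5 in place of 207. The 43 *Smo* cKO cells with *Chad* held 363 CPM of *Comp*, 226 CPM of *Acan*, 40.1 CPM of *Hapln1* and 821 CPM of *Ibsp*, a bone matrix gene, against 6.37, 41.9, 3.11 and 57.2 CPM in the other cells. *Comp* was detected in 21 of the 43, *Acan* in 24, *Hapln1* in 13 and *Ibsp* in 6, so that the *Ibsp* level rests on few cells. Of all 495 *Col2a1* UMIs in *Smo* cKO connective-gated cells, 454 lay in 2 of these 43 cells. The 16 control cells with *Chad* held 305 CPM of *Comp* and 251 CPM of *Acan*, with *Hapln1* and *Ibsp* at 0. Both sets also held the tendon gene *Tnmd*, at 213 CPM in control and 286 CPM in *Smo* cKO cells. The other cells held 32.1 and 51.9 CPM, and *Tnmd* was detected in only 5 of the 16 and 16 of the 43 cells.

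**Figure D5:**
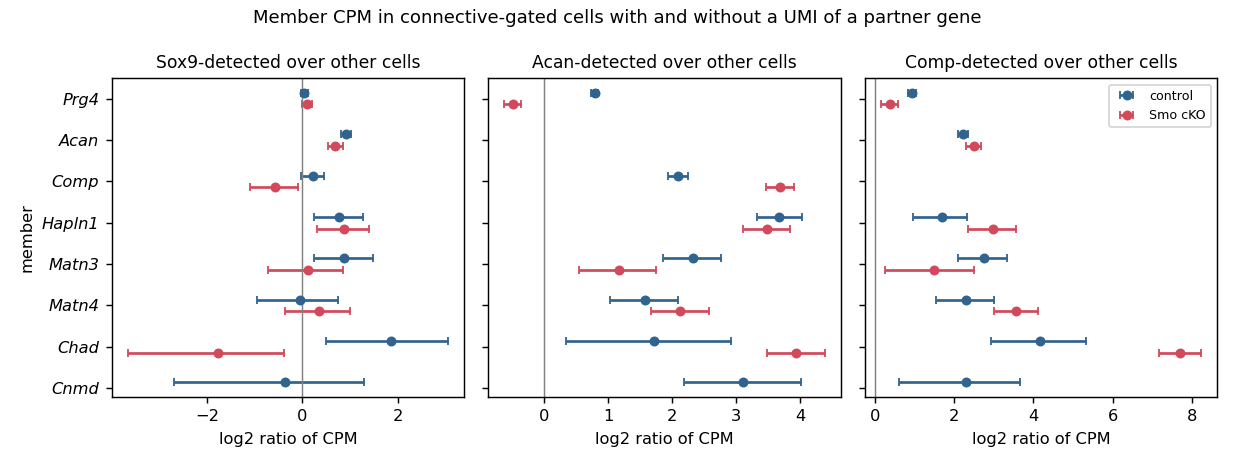
Log2 ratio of member CPM in connective-gated cells with a UMI of *Sox9*, *Acan* or *Comp* (detected after thinning to 2000 UMIs) over cells without, for the control (blue) and *Smo* cKO (red) library with 95% counting intervals. *Hapln1* and *Comp* lie far above 0 in *Acan*-detected cells of both libraries, and *Prg4* lies above 0 in control cells and below 0 in *Smo* cKO cells.

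Cells with several members were few. After thinning, 27.1% of control and 21.4% of *Smo* cKO connective-gated cells held at least 1 member, 3.98% and 2.31% at least 2, and 0.495% and 0.542% at least 3. At full depth 54.7% and 49.7% held at least 1. Thinned and with at most 2000 detected genes, the shares with at least 1 were 18.5% (16.3 to 20.9) and 20.8% (17.7 to 24.1), so the order turned, with overlapping intervals.

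Cells with a tdTomato UMI were looked at with full depth only, given their number. The tdTomato level was 0.608 CPM (0.448 to 0.806) in control connective-gated cells and 1.01 CPM (0.407 to 2.08) in hematopoietic-gated ones. In the *Smo* cKO library it was 1.44 CPM (1.18 to 1.74) and 0.884 CPM (0.382 to 1.74). The intervals overlapped in each library. Whether a tdTomato UMI marks a recombined cell was not tested. The 48 control cells with tdTomato held 106 CPM of *Acan* against 70.0 CPM in the others, and the 105 *Smo* cKO cells 58.0 against 42.9 CPM. *Comp* went the other way, with 5.29 against 20.9 CPM in control cells and 3.74 against 9.40 CPM in *Smo* cKO cells. These rest on 4 and 8 *Comp* UMIs.

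Regulators of cartilage genes and cartilage collagens went in both directions. Of 10 chondrogenic regulators 7 entered the fold count and 1, *Sox6*, was at least 2-fold lower (102 and 47 UMIs, log2 ratio -1.03), while *Runx1* stood at 146 and 147 CPM (0.01), *Runx2* at 66.0 and 64.6 CPM (-0.03) and *Trps1* at 54.4 and 41.9 CPM (-0.38). *Sox5*, a partner of SOX9 named for that role, stood at 10.4 and 6.54 CPM (-0.67). Of the 7, 2 were higher and 5 lower, with a median of -0.11. Of 8 cartilage collagens 7 entered the count, with 1 at least 2-fold higher, *Col2a1* (116 and 495 UMIs), and 1 at least 2-fold lower, *Col9a1* (125 and 56 UMIs), and a median of -0.27. *Col2a1* was found in 43 cells of each library, and 1 *Smo* cKO cell had 270 of its UMIs. The abundant *Col11a1* and *Col27a1* stood at 130 and 150 CPM and at 134 and 111 CPM. Of the 7 collagens in the count, 3 were higher and 4 lower. Among all genes in the count, 2.27% were at least 2-fold higher, 1.87% at least 2-fold lower and 49.3% lower. The same shares stand beside the lists that follow.

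Genes of chondroitin sulfate synthesis, enzymes and the transporters *Slc26a2* and *Slc35d1*, were mostly slightly lower. Of 20 listed, 19 entered the count, 15 were lower and 4 higher in the *Smo* cKO library, 1 (*Chst3*, 24 and 11 UMIs) at least 2-fold, with a median of -0.17. *Chpf*, a chondroitin polymerizing factor, stood at 107 and 88.5 CPM (-0.27), *Chsy1*, a chondroitin synthase, at 60.7 and 56.5 CPM (-0.10), *Papss2*, which makes the sulfate donor, at 44.1 and 34.8 CPM (-0.34), and *Csgalnact1*, which starts the chain, at 39.4 and 33.2 CPM (-0.25). *Chst12*, a chondroitin sulfotransferase singled out after its values were seen, was higher, at 29.5 and 38.5 CPM (0.39). Over all genes in the count, 49.3% were lower.

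Of a list of 7 genes, aggrecan-cleaving proteases and the inhibitor *Timp3*, 5 were higher and 2 lower, with a median of 0.27. Of all genes in the count, 49.3% were lower. *Adamts1* stood at 162 and 196 CPM (0.27), *Adamts4* at 41.2 and 57.8 CPM (0.49) and the inhibitor *Timp3* at 60.0 and 78.5 CPM (0.39), while the lower pair was the aggrecanase *Adamts5* at 65.5 and 55.3 CPM (-0.24) and *Adamts15*, singled out after its values were seen, at 11.5 and 6.58 CPM (-0.81). *Adamts8* was at least 2-fold higher on 10 and 76 UMIs, and 76.3% of the latter lay in 10 cells.

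Relatives of the members went in both directions. Of 14 listed, 12 entered the count, 7 higher and 5 lower, where 49.3% of all genes in the count were lower. *Bcan* (77 and 28 UMIs) was the 1 at least 2-fold lower, and the median was 0.08. The relatives of *Comp* stood at 479 and 545 CPM (*Thbs2*, 0.19), 195 and 238 CPM (*Thbs4*, 0.28) and 151 and 157 CPM (*Thbs1*, 0.06), while *Thbs3*, singled out after its values were seen, was lower at 74.9 and 54.7 CPM (-0.45), and *Vcan*, related to *Acan*, at 250.4 and 201 CPM (-0.31). *Tnmd*, the relative of *Cnmd*, likewise singled out, stood at 32.5 and 53.7 CPM (0.72). Of 9 other cartilage matrix genes 5 entered the count, 4 higher and 1 lower, with a median of 0.81. *Cilp* stood at 116 and 160 CPM (0.46), *Epyc* at 6.90 and 12.1 CPM (0.81) and *Ecrg4* at 196 and 137 CPM (-0.52), and *Ucma* was at least 2-fold higher on 13 and 25 UMIs.

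Likeness of pattern was measured as Pearson's r of log2(CPM + 1) over 38 points, 19 cell groups in each of 2 libraries, among 13576 genes with at least 100 UMIs. The groups overlap and share libraries, so r is a description. *Acan* was most like *Fmod* (r = 0.90), *Tnn* (0.90) and *Wnt16* (0.88), and *Hapln1* like *Sp7* (0.95), the osteoblast transcription factor, *Hs3st3a1* (0.86) and *Alpl* (0.84). *Sp7* and *Alpl* were among the markers of the osteoblast gate, and *Fmod* among those of the skeletogenic state. *Prg4* was most like *Pappa* (0.89), *Tpbg* (0.87) and *Stk39* (0.86), *Comp* like *Fgfr2* (0.82), *Acan* (0.81) and *Six5* (0.79), and *Chad* like *Ostn* (0.76), *Omd* (0.74) and *Tmem56* (0.72). *Matn3* and *Matn4* had their closest genes in *Tsc22d1* (0.76) and *Spock2* (0.84).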

How the data were processed

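Per the labels and the methods, the authors aligned scRNAseq reads of 2 libraries (control and *Smo* cKO callus, 3 pooled animals each) to mm10 with Cell Ranger 3.0.2. The deposited values are raw UMI counts per gene and barcode, without normalization, and they were used as such. Coordinates are from GENCODE vM21.

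Cells with at least 200 genes and under 10% mitochondrial UMIs were kept. The upper limit of 2000 genes in the methods was an alternative. Gates counted detected markers (connective 8, hematopoietic 4, endothelial 4, mural 4, muscle 3, epithelial or mesothelial 3, Schwann 3), and cells passing more than 1 gate were left out. The states took the highest standardized sum of ln(1 + UMIs per 10000). The thresholds were set after the files were seen. CPM is UMIs over all UMIs of the cells. Intervals are exact Poisson, exact conditional binomial for ratios, Clopper-Pearson for shares and Newcombe for their differences. With a count of 0 the limit is 3 counts. Thinning drew 2000 UMIs per cell without replacement, leaving out shallower cells. The fold count took genes with at least 20 UMIs in 1 library and a fold of 2. It was run on simulated Poisson counts with genes changed by a larger fold. These held no variation between cells or between libraries, so they do not check the rule on data that have it. Genes named beside the members were up to 4 of the most abundant of each list and up to 3 genes of most similar pattern. Genes at least 2-fold different and *Ibsp*, *Tnmd*, *Chst12*, *Adamts15* and *Thbs3* were named after their values were seen. *Sox5* was named as a partner of SOX9. Members and lists were chosen with earlier results of these data known. Python 3.11.15, numpy 2.4.6, scipy 1.17.1 and pandas 2.3.3 were used.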

Additional observations from a re-analysis of the deposited data

Results flagged for a closer look

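For 3 pairs of genes the 2 libraries went in opposite directions, with both counting intervals clear of 0, and the difference between the libraries was not tested. *Prg4* in *Acan*-detected over other connective-gated cells gave log2 ratios of 0.79 (control) and -0.49 (*Smo* cKO), while the interval for the difference in the share of *Smo* cKO cells with *Prg4* spanned 0. *Hapln1* in *Prg4*-detected over other cells gave 0.92 on 94 and 186 UMIs (control) and -0.75 on 23 and 230 UMIs (*Smo* cKO), and without its 10 richest cells 0.90 and -0.95. *Chad* in *Sox9*-detected over other cells gave 1.86 and -1.77 on 8 and 4 UMIs in the *Sox9*-detected cells, and with detection at full depth -0.31 and -0.17.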

How the results depend on the processing

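The alternatives were 2 upper limits on detected genes, no mitochondrial filter, 1 more marker for the gates, mixed cells kept, scaling by the median gene ratio, another minimum in the fold count and other thinned depths. Leaving out shared barcodes, and the 10 cells richest in each member, was chosen after seeing the data. Of 62 log2 ratios of single members under 8 alternatives, 53 stayed within their intervals, 7 moved beyond them and 2 reversed. The reversed ones were *Acan* (0.42) and *Comp* (0.34), with at most 2000 detected genes, where *Hapln1* also went from -0.06 to 1.95. Under that limit no member with a value stayed within the interval of its main ratio. *Matn3* went from 0.15 to 1.32, *Matn4* from 0.47 to 2.57, *Chad* from 2.49 to 3.64 and *Prg4* from -0.89 to -0.52. *Comp* without its 10 richest cells was -1.57, and *Cnmd* had no ratio under those 2 alternatives because its *Smo* cKO count was 0.

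The summed members, at -0.81, came to -0.044 with at most 2000 genes and to -0.86 with mixed cells kept. With at least 50 CPM as the minimum, 19 genes were at least 2-fold higher and 4 lower in *Smo* cKO cells, against 322 and 266. Among the members only *Prg4* and *Acan* reached 50 CPM. *Chad*, *Comp* and *Cnmd* fell below that minimum and could not be counted, so 0 members passed in either direction. With at most 2000 genes, 2 members were higher and 0 lower, against 398 and 219 of all genes. There *Hapln1* (7 and 13 UMIs), *Matn3* (5 and 6) and *Cnmd* (5 and 0) fell below the minimum of 20 UMIs and could not be counted. The number of all genes that reached this minimum under that limit was not recorded, so no share is given. The share of cells with any member was 18.5% (at most 2000 genes), 54.7% (no thinning) and 42.0% (5000 UMIs) in control cells, and 20.8% (at most 2000 genes), 49.7% (no thinning) and 34.5% (5000 UMIs) in *Smo* cKO cells, so that with at most 2000 genes the *Smo* cKO share was the higher one, with overlapping intervals. *Acan* in *Sox9*-detected over other cells was 0.69 at 5000 UMIs in control cells, and 0.96 (at most 2000 genes), 1.03 (no thinning) and 0.88 (5000 UMIs) in *Smo* cKO cells. *Comp* in *Sox9*-detected *Smo* cKO cells reversed from -0.57 to 0.43 without thinning and to 1.14 at 5000 UMIs.

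With 1 more subclass marker the summed ratios were 1.97 (chondrocyte, reversed), -0.45 (osteoblast), -1.02 (tenocyte), -1.20 (skeletogenic) and -0.63 (*Sfrp4* *Eln*). With at most 2000 genes they were 1.94 (osteoblast, reversed), -0.45 (tenocyte), -1.05 (skeletogenic), -1.30 (*Sfrp4* *Eln*), 0.67 (adventitial, reversed) and -0.87 (marrow stromal). The cause was not tested. No paired analysis was possible because each genotype has 1 library. *Cnmd* and *Chad* rest on a few cells, and *Matn1* and *Cytl1* were not detected in connective-gated cells. Whether depth limits these rare members was not tested.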
